A study of Mus musculus with 4 samples.

Results

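The machinery that separates chromosomes and divides the cell was examined through 52 genes, the mitotic kinases, spindle checkpoint proteins, chromosomal passenger subunits, kinetochore proteins, kinesins, spindle factors, cytokinesis proteins, condensin I with topoisomerase II, and the proteins that start anaphase. They were chosen by name, for their role in mitosis, from the 48432 gene identifiers of the table, with earlier results of these data known. All 52 were matched to an identifier and all 52 passed the filter on low counts; the lowest count of any of them in any library was 6 fragments (Cenpm).

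D2.OR, the source of the RNA, is a line of mouse mammary cells that the labels describe as alveolar, hyperplastic and pre-malignant; it was kept for 7 days in 3D culture with the basement membrane extract Cultrex. BORG-expressing cells (2 libraries), which express the long non-coding RNA BORG, were set against parental D2.OR cells (2 libraries, named Empty in the deposited table); both groups shared the line, the culture and the 7 days. Whether the parental cells carried an empty vector, and whether the BORG-expressing cells were 1 clone or a pool, is not given in the sources used here, and the level of BORG itself was not analysed. The design text calls the libraries biological duplicates, and nothing says whether they came from separate cultures, so p-values measure only the spread between these libraries.

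The BORG-expressing libraries held 7900767 (replicate 1) and 27131662 (replicate 2) fragments assigned to genes, and the parental libraries held 24176438 (replicate 1) and 30322679 (replicate 2). The first BORG-expressing library is the shallowest, so its values for genes of low level carry the largest counting error. The 6 milk and alveolar genes examined as markers (Csn2, Csn3, Wap, Lalba, Elf5 and Ltf) were under 1 FPKM in all 4 libraries. Of the keratin genes Krt8, Krt18 and Krt14 were high and Krt19 and Krt5 were under 1 FPKM in all 4 libraries. Krt18 was at 569 and 388 FPKM in BORG-expressing libraries and 712 and 689 FPKM in parental libraries, and Krt8 at 439 and 295 against 297 and 261 FPKM. Krt14, a basal keratin, was at 483 and 279 FPKM in BORG-expressing libraries and 138 and 123 FPKM in parental libraries, while the other 4 basal markers were under 1 FPKM in all libraries; the part of this difference in the results on mitotic genes was not tested. The epithelial adhesion gene Epcam was low, at 1.07 and 1.29 against 1.06 and 0.749 FPKM. Of the fibroblast markers Pdgfra (69.4 and 58.2 against 83.0 and 94.3 FPKM) and Col1a1 (25.4 and 19.5 against 20.9 and 14.6 FPKM) were expressed, while Dcn, Lum and Col3a1 stayed under 1 FPKM. Macrophage and endothelial markers other than Cd68 (10.7 and 7.96 against 4.57 and 5.33 FPKM) and Kdr were under 1 FPKM. The labelled alveolar character was not seen in milk genes, of which Wap, Lalba and Elf5 were listed at 0. In RNA from whole cultures, fewer cells in division and less of an RNA per dividing cell cannot be told apart.

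During mitosis, sister chromatids condensed by condensin are attached through their kinetochores to spindle microtubules, and motors of the kinesin family build and move the spindle. The spindle checkpoint holds back the anaphase-promoting complex until every kinetochore is attached; then securin is degraded, separase cuts cohesin, and a contractile ring divides the cell. Many of these genes are transcribed late in the cell cycle from promoters that hold a CHR element (cell cycle genes homology region), to which the MuvB core binds, with B-MYB and FOXM1 as activating partners and within the repressive DREAM complex in resting cells. A neighbouring box bound by the factor NF-Y is common in the same promoters.

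Expression of mitotic genes was lower, in part, in BORG-expressing cells. With edgeR's quasi-likelihood test and Benjamini-Hochberg adjustment over all 15116 genes tested, at a threshold of 0.05, 20 of the 52 genes fell, 3 rose and 29 did not pass. Of all genes tested 21.3% fell and 19.9% rose (41.1% in either direction), against 38.5% and 5.77% of the 52. The median log2 fold change, BORG-expressing over parental, was -0.36 over the 52 genes and 0.022 over all genes tested. In 31 of the 52 genes both BORG-expressing libraries lay below both parental libraries in CPM (counts divided by the TMM-scaled library size), and in 7 they lay above; over all genes these shares were 36.0% and 36.6%. A fall of at least 2-fold that passed the test was found in 8 genes (10.0% of all genes tested fell that far), and a rise of that size in 0 (9.59% of all genes). The 8 were Smc2, Kif15, Ndc80, Ncapg, Kif11, Nuf2, Ttk and Spc24. The genes that rose were Pttg1, Aurkb and Kif18b. Without BORG-expressing replicate 2 only 1 gene rose (Kif18b), and 0 rose without parental replicate 1 or without parental replicate 2, where 2 each were higher at an unadjusted p under 0.05 by edgeR; 15 to 23 genes fell in the fits without 1 library.

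**Figure D1:**
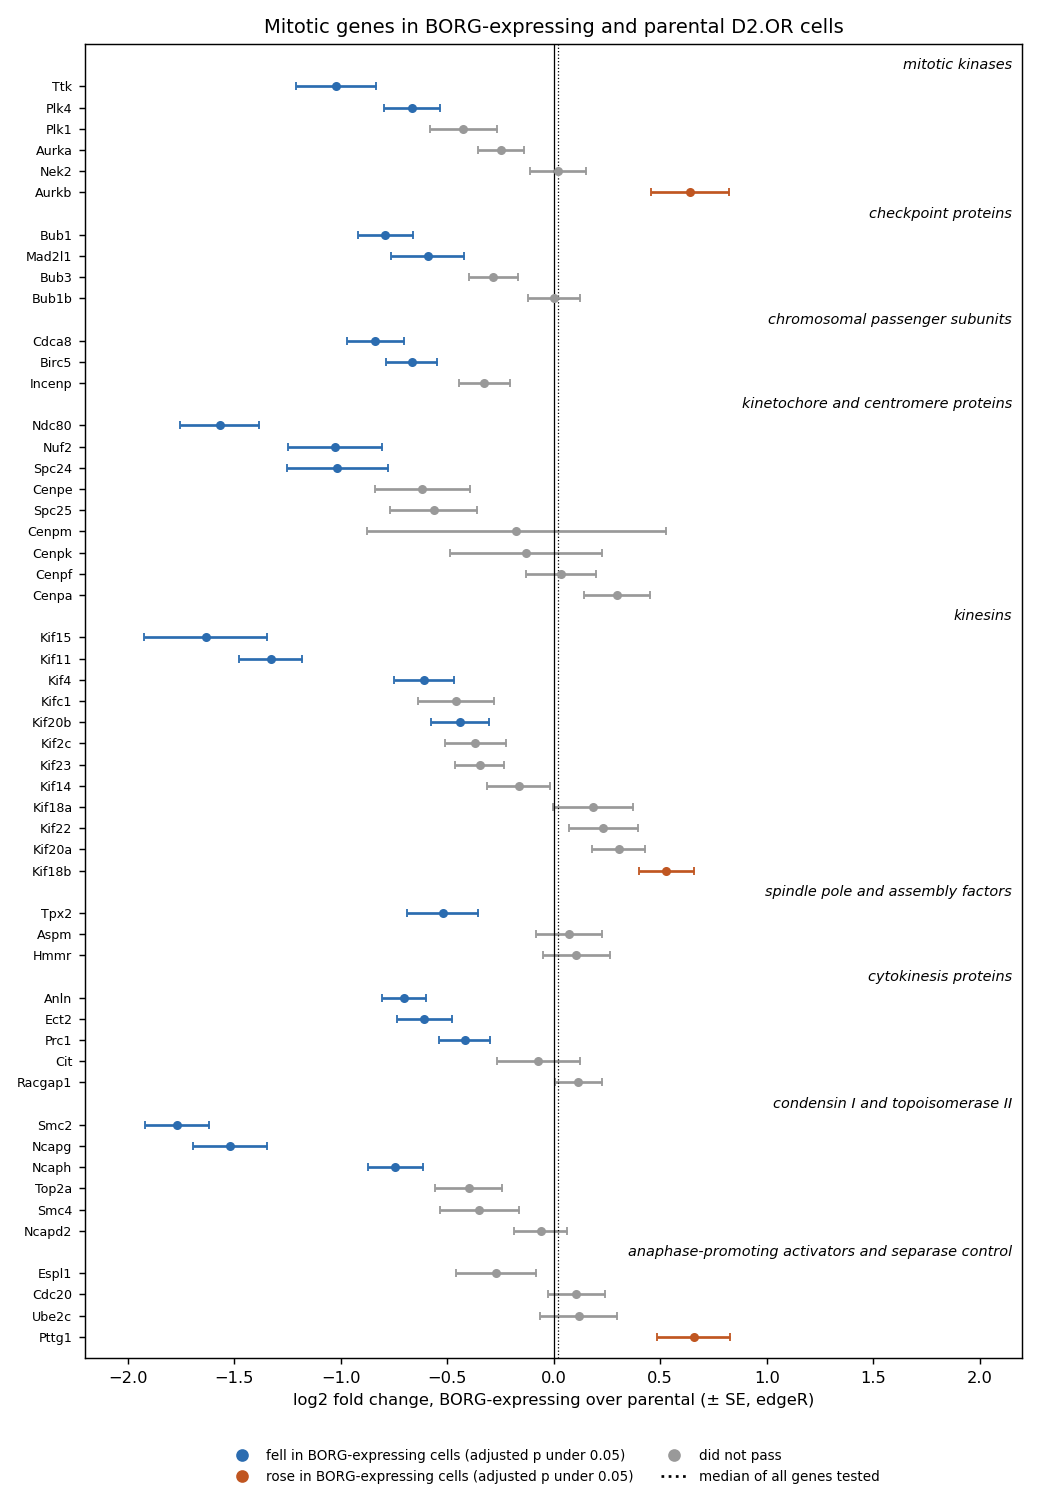
Log2 fold change of each of the 52 genes, BORG-expressing over parental, with its standard error (edgeR, n = 2 libraries per group), grouped by role; the dotted line is the median of all genes tested. Values run from -1.77 (Smc2) to 0.66 (Pttg1), with 20 genes that fell in blue, 3 that rose in orange and 29 that did not pass in grey.

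The summed level of the 52 genes was 2842 and 2397 CPM in BORG-expressing libraries, against 3278 and 3633 CPM in parental libraries. The groups did not overlap in this sum. By level per transcript length, Smc4, the condensin ATPase, led with 54.0 and 75.9 FPKM in BORG-expressing libraries and 84.3 and 117 FPKM in parental libraries, and Cenpm, a subunit of the inner kinetochore, had the lowest mean, with 0.797 and 1.03 against 1.66 and 0.468 FPKM.

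The promoters of these genes show what most of the group shares. RefSeq promoters on GRCm38.p6, from 250 bases before to 50 bases after each annotated start, were found for 46 of the 52 genes; those of Incenp, Spc24, Tpx2, Kif20a, Smc4 and Aurkb were not used here. The CHR letters TTTGAA or TTCGAA, searched on both strands, were present for 35 of the 46 genes (76.1%), against 21.7% of the 27025 genes with a promoter in the same table. The box CCAAT, searched on both strands, was present for 33 of the 46 (71.7%), against 41.1% of all genes, and both for 30 (65.2%), against 8.61%. Matches of the 2 motifs overlapped in 1 case and were counted for both. Of the genes that fell 13 of 18 held the CHR letters and 9 of 18 the CCAAT letters, of those that did not pass 21 and 23 of 26, and of those that rose 1 and 1 of 2. The other gene that rose, Pttg1, was searched in a window inside its annotated span (below). Of 49 CHR matches, 35 (71.4%) began within the stretch from 60 bases before to 50 bases after the start, while CCAAT matches had their median at -66.5 (80 matches). Genes with several starts, such as Ect2, Prc1 and Bub3, entered with each start, so the same letters can count more than once. Positions over all promoters were not computed, so these values describe the members only.

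The 150 bases before the annotated start are shown for 3 of the genes that fell most (Smc2, Ncapg, Kif11), for 2 that rose (Kif18b, Pttg1) and for 2 that did not pass (Cdc20, Ube2c), since they show which of the 2 elements sit close to the start in each. Sequences run 5′ to 3′ on the gene's own strand, and capitals mark the CHR and CCAAT letters or their reverse complements. On GRCm38.p6 the stretches are Smc2 chr4:52439071-52439220 (+ strand), Ncapg chr5:45669775-45669924 (+ strand), Kif11 chr19:37376232-37376381 (+ strand), Kif18b chr11:102925125-102925274 (- strand), Pttg1 chr11:43425982-43426131 (- strand), Cdc20 chr4:118437344-118437493 (- strand) and Ube2c chr2:164769779-164769928 (+ strand).
Smc2: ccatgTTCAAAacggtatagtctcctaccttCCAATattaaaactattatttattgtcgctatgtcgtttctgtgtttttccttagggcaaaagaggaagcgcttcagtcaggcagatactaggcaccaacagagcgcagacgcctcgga
Ncapg: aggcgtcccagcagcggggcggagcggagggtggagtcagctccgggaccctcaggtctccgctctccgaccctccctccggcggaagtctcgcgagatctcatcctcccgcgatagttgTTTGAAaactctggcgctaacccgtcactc
Kif11: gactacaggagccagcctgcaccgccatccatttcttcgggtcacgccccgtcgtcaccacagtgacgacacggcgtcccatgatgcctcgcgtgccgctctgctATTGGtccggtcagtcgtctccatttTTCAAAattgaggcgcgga
Kif18b: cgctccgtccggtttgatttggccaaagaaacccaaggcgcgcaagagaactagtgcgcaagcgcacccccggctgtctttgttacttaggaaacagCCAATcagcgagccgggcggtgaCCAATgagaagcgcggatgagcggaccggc
Pttg1: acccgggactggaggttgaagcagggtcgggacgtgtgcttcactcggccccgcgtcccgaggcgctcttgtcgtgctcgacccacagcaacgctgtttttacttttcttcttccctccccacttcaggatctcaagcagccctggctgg
Cdc20: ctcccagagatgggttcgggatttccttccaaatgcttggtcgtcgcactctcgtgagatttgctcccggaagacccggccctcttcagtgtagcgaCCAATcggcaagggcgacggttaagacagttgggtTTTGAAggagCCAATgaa
Ube2c: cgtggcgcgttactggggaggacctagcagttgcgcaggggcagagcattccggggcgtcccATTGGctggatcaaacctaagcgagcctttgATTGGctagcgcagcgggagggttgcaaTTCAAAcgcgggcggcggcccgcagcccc
The capitals stand for letters found and not for a site shown to be bound. In Ncapg and Kif11 the CHR letters begin 30 and 19 bases before the start, in Cdc20 18 and in Ube2c 29 bases before it. In Smc2 they lie farther upstream, 145 bases before the start, with a further match 27 bases after it. Kif18b shows a pair of CCAAT boxes here and holds its CHR letters 4 bases after the start, outside the stretch shown. The start itself is counted as 0. No match to either element was found for Pttg1 from 250 bases before to 50 bases after the RefSeq start used, which says only that these letters are not in its window. That window, with the stretch shown, lies inside the annotated span of the gene (chr11:43420250-43426251, - strand). The bases before the outer end of that span were not searched, so nothing is said of a promoter there.

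**Figure D2:**
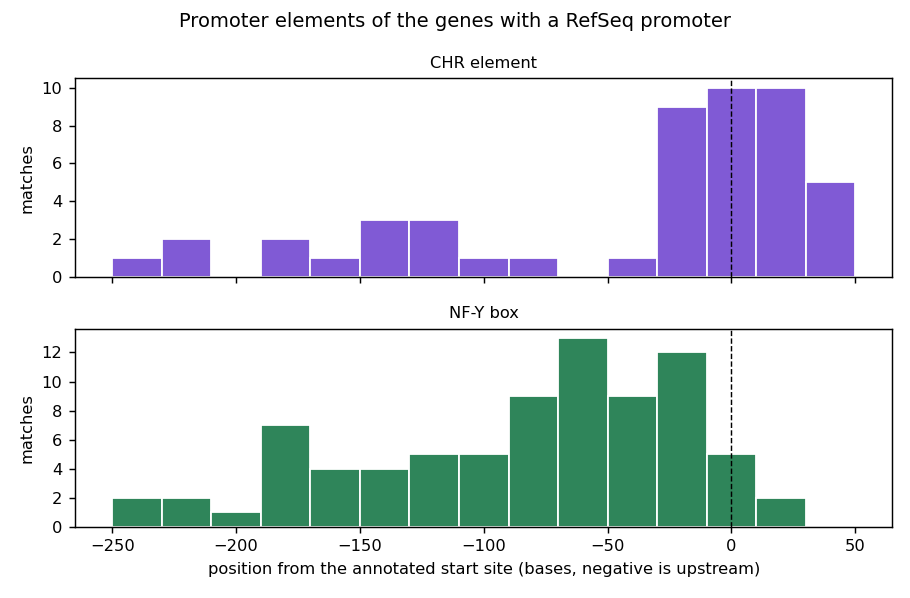
Number of matches to the CHR letters (upper panel) and to the box bound by NF-Y (lower panel) by the position of their first base, in bins of 20 bases, over the 51 RefSeq promoters of 46 genes; the dashed line is the annotated start. CHR matches gather around the start and NF-Y boxes upstream of it, with a median at -66.5. Letters near several starts of a gene can count more than once, and positions over all promoters were not computed.

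Condensin I and topoisomerase II compact and disentangle the chromatids, and this class held the gene that fell most. Smc2, the ATPase subunit that pairs with Smc4, had 32.7 and 26.7 CPM in BORG-expressing libraries, against 92.2 and 109 CPM in parental libraries. The groups were far apart, and Smc2 fell by 1.77 ± 0.15 log2 units (± SE, as in what follows; edgeR's adjusted p = 4.06e-04). Ncapg, a HEAT-repeat subunit, had 31.1 and 22.8 CPM in BORG-expressing libraries and 71.1 and 81.2 CPM in parental libraries and fell by 1.52 ± 0.17 log2 units (adjusted p = 0.00115). Ncaph, the kleisin that links the ring, fell by 0.74 ± 0.13 log2 units (21.6 and 22.1 against 34.6 and 38.6 CPM, adjusted p = 0.0055). The partner subunits gave other values. Ncapd2, the other HEAT-repeat subunit, had 32.2 and 31.7 CPM in BORG-expressing libraries and 31.4 and 35.2 CPM in parental libraries, values that overlap (-0.061 ± 0.12 log2 units, adjusted p = 0.727). Smc4 had 452 and 316 CPM in BORG-expressing libraries and 448 and 528 CPM in parental libraries, and its groups overlapped in CPM (but not in FPKM, given above), the first BORG-expressing library lying as high as the first parental one (-0.35 ± 0.18 log2 units, adjusted p = 0.176). Top2a, the decatenating enzyme, had -0.40 ± 0.16 log2 units (adjusted p = 0.0888), with both BORG-expressing libraries lower. With no filter and with a correction for GC content and length both Smc4 and Top2a passed as lower. With DESeq2 Top2a passed and Smc4 did not, and in limma on FPKM neither passed.

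The proportions of the condensin transcripts can be read per length. Within a library the FPKM ratio of Smc2 to Smc4 was 0.0630 and 0.0663 in BORG-expressing libraries, against 0.166 and 0.163 in parental libraries. The ratio of Ncapg to Ncapd2 was 0.759 and 1.34 in BORG-expressing libraries and 3.08 and 3.73 in parental libraries, and that of Ncaph to Ncapd2 was 0.883 and 1.29, against 1.81 and 1.87. In each of these ratios the libraries of the groups did not overlap. Each sets a gene that fell over one that did not pass, so the ratios restate those calls and add no separate support. Between FPKM and CPM the direction of the difference changed for 6 genes that did not pass (Bub1b, Cenpf, Hmmr, Aspm, Cit and Ncapd2) and the ratios are on the authors' FPKM scale. No p is given for a ratio, since an exact two-sided permutation test of 2 libraries against 2 cannot give less than 0.333.

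**Figure D3:**
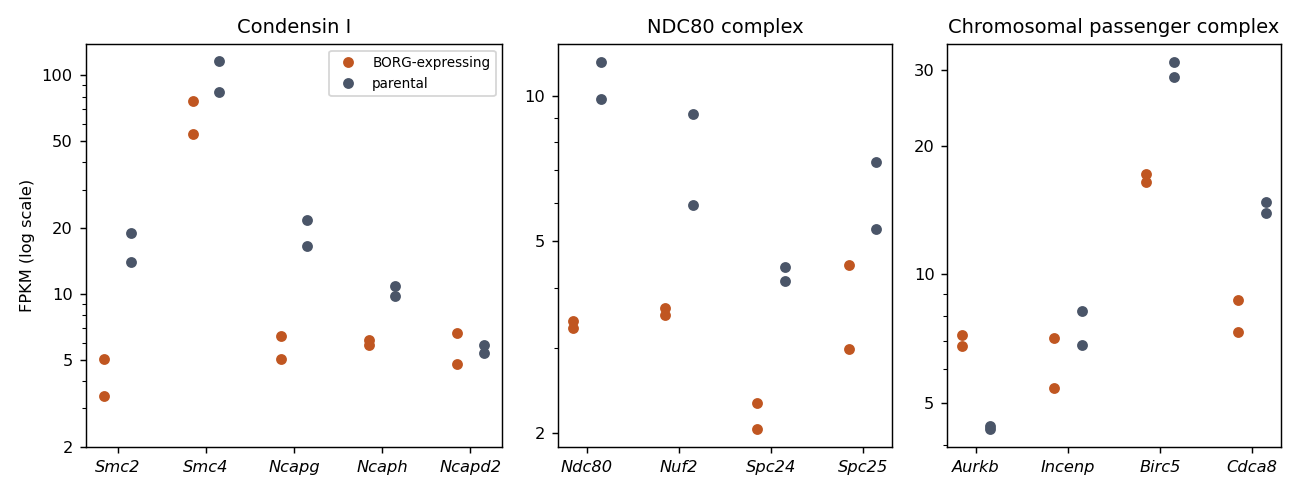
FPKM of each subunit (log scale) in each BORG-expressing (orange) and parental (grey) library, for condensin I, the NDC80 complex and the chromosomal passenger complex. Smc2, Ncapg, Ncaph, Ndc80, Nuf2, Spc24, Birc5, Cdca8, Smc4 and Spc25 lie lower in both BORG-expressing libraries, Ncapd2 and Incenp overlap and Aurkb lies higher.

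The 3 kinetochore genes that fell all belong to the NDC80 complex, the 4-subunit rod that grips the microtubule end. Ndc80 had 12.2 and 9.18 CPM in BORG-expressing libraries and 29.6 and 32.7 CPM in parental libraries and fell by 1.57 ± 0.18 log2 units (adjusted p = 0.00132). Its partner Nuf2 had 10.6 and 8.34 against 16.1 and 21.9 CPM and fell by 1.03 ± 0.22 log2 units (adjusted p = 0.0123). Spc24, at the kinetochore end of the rod, had 3.03 and 3.61 against 7.06 and 6.57 CPM and fell by 1.02 ± 0.24 log2 units (adjusted p = 0.0162). In all 3 genes the libraries of the groups did not overlap. Spc25, the fourth subunit, lay lower in both BORG-expressing libraries (6.19 and 6.08 against 8.20 and 9.90 CPM) without passing (-0.56 ± 0.20 log2 units, adjusted p = 0.0681).

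The other 5 genes of the class did not pass. Cenpf, a large protein of the outer kinetochore and the member of this class with the largest p, had 189 and 143 CPM in BORG-expressing libraries and 148 and 176 CPM in parental libraries, which overlap (0.034 ± 0.16 log2 units, adjusted p = 0.891). Cenpe, the kinesin motor that carries chromosomes to the spindle equator, had -0.62 ± 0.22 log2 units (165 and 103 against 188 and 222 CPM, adjusted p = 0.0678). Cenpe, which lies outside the NDC80 complex, did pass as lower with DESeq2, with no filter, in limma on FPKM and with the correction for GC content and length. It did not pass with RLE or upper-quartile factors, totals only, at least 5 FPKM or the replicate block. The same held without BORG-expressing replicate 2 or parental replicate 2. Over the 15 alternatives its log2 fold change ran from -0.99 to -0.31. Cenpa, the histone H3 variant that marks the centromere, was higher in both BORG-expressing libraries (39.8 and 44.4 against 38.5 and 30.3 CPM) with an adjusted p of 0.169. Cenpk and Cenpm, of the constitutive centromere network, had 13 and 60 against 46 and 71 fragments and 6 and 41 against 51 and 18 fragments, BORG-expressing libraries first, too few to show a difference of moderate size.

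Among the kinesins 4 of 12 fell, 1 rose and 7 did not pass. The plus-end motors that push the spindle poles apart fell most. Kif15 had 8.46 and 5.32 CPM in BORG-expressing libraries, against 16.9 and 24.2 CPM in parental libraries, and fell by 1.63 ± 0.29 log2 units (adjusted p = 0.0059). Kif11, known as Eg5, had 45.6 and 37.7 against 94.8 and 113 CPM and fell by 1.33 ± 0.15 log2 units (adjusted p = 0.00107). The BORG-expressing libraries of both genes lay well below the lower parental library. The chromokinesin gene Kif4 fell by 0.61 ± 0.14 log2 units (37.5 and 32.3 against 48.5 and 57.3 CPM, adjusted p = 0.0157). That call was lost with the replicate block (adjusted p = 0.0540) and in limma on log2(FPKM + 1) (0.0663) or log2(FPKM + 0.1) (0.0618). It was also lost without parental replicate 2 (log2 fold change -0.50). Kif20b, which acts in cytokinesis, fell by 0.44 ± 0.14 log2 units (35.1 and 31.0 against 41.2 and 48.1 CPM, adjusted p = 0.0422). Its call was lost with upper-quartile factors (0.0664), totals only (0.0512), at least 5 FPKM (0.0503) and the replicate block (0.137). It was also lost in limma (0.158 with log2(FPKM + 1), 0.150 with log2(FPKM + 0.1)) and without BORG-expressing replicate 2 (log2 fold change -0.35) or parental replicate 2 (-0.34).

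Kif18b, a microtubule depolymerase of the astral microtubules, went the other way. It had 34.3 and 36.8 CPM in BORG-expressing libraries and 26.1 and 23.4 CPM in parental libraries and rose by 0.53 ± 0.13 log2 units (adjusted p = 0.0194). Its relative Kif18a, which dampens chromosome movements, had 24.2 and 21.2 against 17.0 and 22.8 CPM, with overlapping libraries and the largest p of the class (0.18 ± 0.19 log2 units, adjusted p = 0.468). Kif20a, which brings the passenger complex to the central spindle, and the chromokinesin gene Kif22 were higher in both BORG-expressing libraries without passing (0.30 ± 0.12 log2 units and 0.23 ± 0.16 log2 units, adjusted p = 0.0946 and 0.296). Kif2c, Kif14, Kif23 and Kifc1 were lower in both BORG-expressing libraries without passing, with log2 fold changes from -0.46 (Kifc1) to -0.16 (Kif14). The annotation lists the pseudogenes Kif4-ps and Kif22-ps, and Kifc1 has close copies in the mouse genome, so the counts of Kif4, Kif22 and Kifc1 are uncertain. The strand setting of the counting is not given in the sources used here, and exons of 12 of the 52 genes overlap another gene on the opposite strand (Plk1, Nek2, Cdca8, Cenpk, Kif4, Kif18a, Kif20a, Kif22, Prc1, Ncapg, Cdc20 and Ube2c) and those of Ncapd2 and Top2a one on the same strand, so these counts could hold reads of the neighbour.

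**Figure D4:**
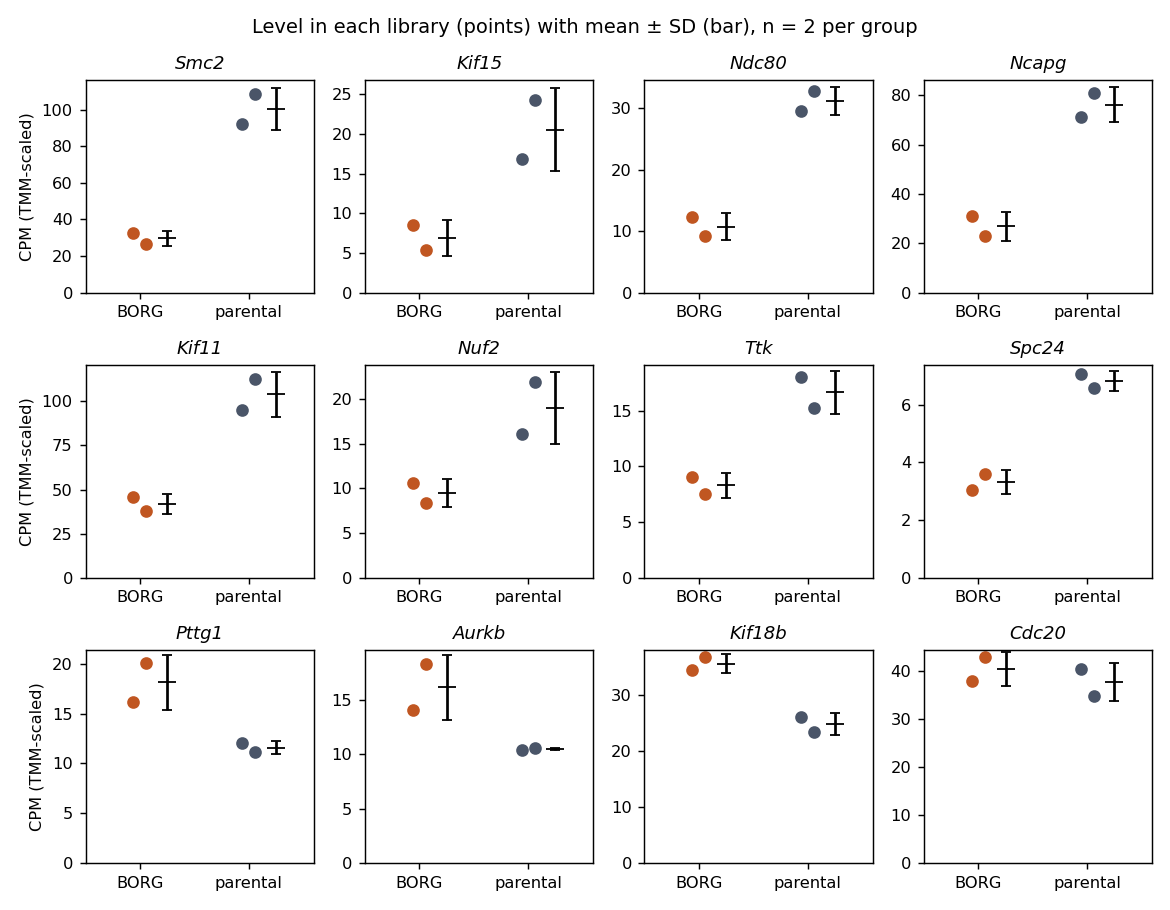
CPM of 12 genes in each BORG-expressing (orange, left) and parental (grey, right) library, with the mean ± SD of 2 libraries beside each group; every axis starts at 0. The 8 genes that fell at least 2-fold show no overlap between groups, Pttg1, Aurkb and Kif18b lie higher in both BORG-expressing libraries, and Cdc20 overlaps.

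The mitotic kinases were split. Ttk (MPS1), the kinase that starts the spindle checkpoint at kinetochores, had 9.09 and 7.51 CPM in BORG-expressing libraries and 18.0 and 15.3 CPM in parental libraries and fell by 1.02 ± 0.19 log2 units (adjusted p = 0.00691). Plk4, the kinase of centriole duplication, fell by 0.67 ± 0.13 log2 units (41.5 and 35.3 against 57.2 and 64.1 CPM, adjusted p = 0.00905). Aurkb, the catalytic subunit of the chromosomal passenger complex, rose by 0.64 ± 0.18 log2 units (14.0 and 18.3 against 10.4 and 10.5 CPM, adjusted p = 0.033). Its call was lost without any of 3 libraries: without BORG-expressing replicate 2 the adjusted p was 0.157, without parental replicate 1 it was 0.133 and without parental replicate 2 it was 0.0919. With DESeq2 it was 0.0718, with the replicate block 0.0894, and in limma 0.0655 with log2(FPKM + 1) and 0.0619 with log2(FPKM + 0.1). Aurka, of centrosome maturation and spindle assembly, and Plk1, of mitotic entry, lay lower in both BORG-expressing libraries without passing (-0.25 ± 0.11 log2 units and -0.42 ± 0.16 log2 units, adjusted p = 0.111 and 0.0727). Among the alternatives Plk1 was lower by the test only with the correction for GC content and length (edgeR's adjusted p = 0.0211). Nek2, which separates the centrosomes, had 35.6 and 32.6 against 31.2 and 35.8 CPM and overlapped (0.02 ± 0.13 log2 units, adjusted p = 0.919). Within a library the FPKM ratio of Aurkb to Aurka was 0.354 and 0.403 in BORG-expressing libraries, against 0.212 and 0.200 in parental libraries.

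The non-catalytic subunits of the passenger complex did not follow Aurkb. Cdca8, which encodes borealin, had 16.5 and 15.7 CPM in BORG-expressing libraries and 29.2 and 28.3 CPM in parental libraries and fell by 0.84 ± 0.13 log2 units (adjusted p = 0.00405). Birc5, which encodes survivin, had 24.5 and 23.7 against 37.4 and 39.1 CPM and fell by 0.67 ± 0.12 log2 units (adjusted p = 0.00627). Incenp, the scaffold that activates the kinase, had 27.8 and 28.4 against 36.4 and 34.1 CPM, with no overlap in CPM (in FPKM the groups overlap) but without passing (-0.33 ± 0.12 log2 units, adjusted p = 0.0708); with a correction for GC content and length it was lower by the test (-0.38, adjusted p = 0.0171). The ratio of Aurkb to Incenp in FPKM was 1.02 and 1.26 in BORG-expressing libraries, against 0.531 and 0.649 in parental libraries. The ratios of Aurkb to Aurka and to Incenp set a gene that rose over one that did not pass and add no separate support.

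Of the checkpoint proteins, which stop anaphase while kinetochores are unattached, Bub1 and Mad2l1 fell and Bub3 and Bub1b did not pass. Bub1, a kinase and kinetochore platform, had 18.4 and 18.8 CPM in BORG-expressing libraries and 31.0 and 33.4 CPM in parental libraries and fell by 0.79 ± 0.13 log2 units (adjusted p = 0.00452). Mad2l1, the checkpoint protein MAD2 that sequesters CDC20, fell by 0.59 ± 0.17 log2 units (18.2 and 14.2 against 23.2 and 25.02 CPM, adjusted p = 0.0342). The call of Mad2l1 was lost with the replicate block (0.0940) and in limma on log2(FPKM + 1) (0.0925) or log2(FPKM + 0.1) (0.0872). It was also lost without BORG-expressing replicate 2 (log2 fold change -0.41) or parental replicate 2 (-0.55). Bub1b, which encodes BUBR1, had 61.4 and 52.1 against 56.1 and 56.8 CPM, interleaved between groups (0.00078 ± 0.12 log2 units, adjusted p = 0.997). Bub3, the adaptor of BUB1 and BUBR1, had -0.28 ± 0.11 log2 units (adjusted p = 0.0913).

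In the cytokinesis class Anln, Ect2 and Prc1 fell. Anln, the scaffold of the contractile ring, had 192 and 175 CPM in BORG-expressing libraries and 290.0 and 308 CPM in parental libraries and fell by 0.70 ± 0.10 log2 units (adjusted p = 0.00302). Ect2, the exchange factor that activates RhoA at the cell equator, fell by 0.61 ± 0.13 log2 units (92.9 and 78.6 against 125 and 136 CPM, adjusted p = 0.0113). Prc1, which bundles the microtubules of the central spindle, fell by 0.42 ± 0.12 log2 units (104 and 98.2 against 125 and 145 CPM, adjusted p = 0.0334). Its call was lost with upper-quartile factors (0.055), with the replicate block (0.1495) and in limma on log2(FPKM + 1) (0.1325) or log2(FPKM + 0.1) (0.126). It was also lost with the block and the GC and length correction together, and without BORG-expressing replicate 2 (log2 fold change -0.37) or parental replicate 2 (-0.32). The partners of the centralspindlin complex, Racgap1 (0.11 ± 0.11 log2 units) and Kif23 (-0.35 ± 0.12 log2 units), did not pass, with adjusted p values of 0.441 and 0.0525. Cit, the citron kinase of the midbody, had 12.9 and 16.6 against 17.3 and 14.1 CPM and the largest p of the class (-0.072 ± 0.19 log2 units, adjusted p = 0.797).

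Tpx2, which activates Aurora A on spindle microtubules, had 101 and 73.2 CPM in BORG-expressing libraries and 120.1 and 128 CPM in parental libraries and fell by 0.52 ± 0.17 log2 units (adjusted p = 0.0471). Of the genes that passed it had the largest adjusted p. The call was lost with RLE factors (0.0535), upper-quartile factors (0.0693) or totals only (0.0510) as the scaling. It was also lost with at least 5 FPKM (0.0640), with the replicate block (0.0969) and in limma on log2(FPKM + 1) (0.0789) or log2(FPKM + 0.1) (0.0740). The same held without BORG-expressing replicate 2 (log2 fold change -0.30) or parental replicate 2 (-0.49). The spindle pole genes Hmmr and Aspm overlapped between groups. Aspm, which focuses microtubule minus ends, had 90.2 and 68.8 against 71.1 and 79.2 CPM (0.073 ± 0.15 log2 units, adjusted p = 0.741), and Hmmr had 0.11 ± 0.16 log2 units (adjusted p = 0.629).

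The genes that start anaphase held no member that fell. Pttg1, which encodes securin, the inhibitor of separase, had 16.2 and 20.1 CPM in BORG-expressing libraries and 12.0 and 11.2 CPM in parental libraries and rose by 0.66 ± 0.17 log2 units (adjusted p = 0.0244). It was the only gene of the 3 that rose to pass also in limma on FPKM, but its adjusted p was 0.0977 without BORG-expressing replicate 2, 0.0772 without parental replicate 1 and 0.107 without parental replicate 2. The adjusted p of Kif18b was 0.0699 without parental replicate 1 and 0.171 without parental replicate 2. Espl1, which encodes separase, did not pass (-0.27 ± 0.19 log2 units, adjusted p = 0.294). Cdc20, the activator of the anaphase-promoting complex, had 37.9 and 42.8 against 40.5 and 34.9 CPM, and Ube2c, its ubiquitin-conjugating enzyme and the member of this class with the largest p, had 30.8 and 40.9 against 36.8 and 30.1 CPM. Both overlapped between groups, at 0.11 ± 0.13 log2 units and 0.12 ± 0.18 log2 units (adjusted p = 0.564 and 0.64).

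Transcript composition varied with the call. The longest annotated transcript had a median GC content of 42.6% for the 20 genes that fell, 48.7% for the 29 that did not pass and 52.5% for the 3 that rose, against 49.0% over all genes tested. Across the 52 genes the fold change and GC content correlated with Pearson's r = 0.43 and Spearman's rho = 0.41, and across 15061 genes with r = 0.038 and rho = 0.057. Genes are not independent replicates and share the same 4 libraries, so these values are a description. With length r was -0.11 over the 52. After per-library correction for GC content and length, 25 of the 52 genes fell and 4 rose (the fourth was Kif20a); calls over all genes were also more frequent in that fit, at 25.8% lower and 24.6% higher, and the part of base composition in the differences was not tested further.

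**Figure D5:**
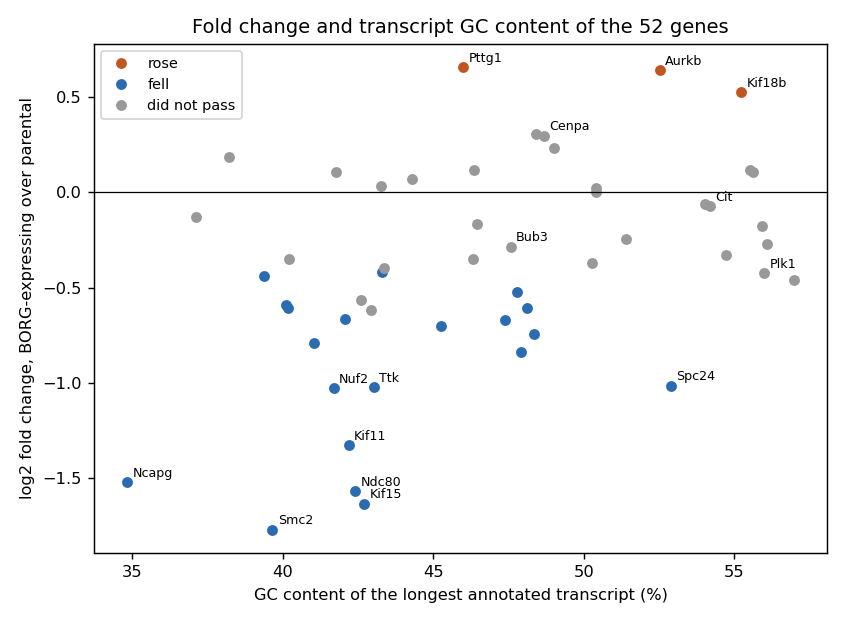
Log2 fold change (BORG-expressing over parental) of the 52 genes against the GC content of their longest annotated transcript in percent; points are genes, coloured by the edgeR call. The genes that fell most, such as Smc2 and Ncapg, have low GC content, and Spc24 is the exception among the 8 that fell at least 2-fold.

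The remaining machinery of chromosome segregation and division was read from a list of 147 further genes, all of them tested. This list too was chosen with earlier results of these data known. Of these 41 fell, 22 rose and 84 did not pass (27.9% and 14.97%, against 21.3% and 19.9% of all genes tested), with a median log2 fold change of -0.17. The number that rose was 14 without parental replicate 1 and 13 without parental replicate 2. Shares within several groups of the list lie near those of all genes. The outer kinetochore stood lowest among the 9 groups of the list, with 10 of 14 genes that fell, 1 that rose and a median of -0.88. Its ROD-Zwilch-ZW10 complex, which brings dynein and MAD1 to kinetochores, fell in all 3 subunits. Zwilch had 4.17 and 4.08 CPM in BORG-expressing libraries and 19.8 and 19.0 CPM in parental libraries and fell by 2.23 ± 0.17 log2 units (adjusted p = 2.90e-04). Kntc1, which encodes ROD, had 12.4 and 8.67 against 42.4 and 47.6 CPM and fell by 2.14 ± 0.20 log2 units (adjusted p = 5.32e-04), and Zw10 fell by 1.11 ± 0.12 log2 units (adjusted p = 9.39e-04). The 4 subunits of the MIS12 complex, which links the NDC80 rod to the centromere, all fell, by between 0.60 (Mis12) and 1.90 (Nsl1). Knl1, the scaffold for BUB1, fell by 1.04 ± 0.20 log2 units (adjusted p = 0.00889), while Zwint, its binding partner, rose by 0.90 ± 0.13 log2 units (184 and 163 against 86.2 and 99.8 CPM, adjusted p = 0.00257).

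Other complexes were mixed. In the constitutive centromere network 4 of 17 genes fell and 13 did not pass, Cenpn (-1.40 ± 0.26 log2 units, adjusted p = 0.00689) and Cenpq (-0.99 ± 0.19 log2 units, adjusted p = 0.00885) having the smallest p. Condensin II was mixed, with Ncapg2 lower (-1.16 ± 0.15 log2 units, adjusted p = 0.00177) and Ncaph2 higher (0.89 ± 0.11 log2 units, adjusted p = 0.0014). Of 17 genes of the anaphase-promoting complex and its regulators 4 fell and 2 rose, with Anapc16 at -1.04 ± 0.14 log2 units (adjusted p = 0.00215) and the cullin subunit gene Anapc2 at 0.98 ± 0.13 log2 units (adjusted p = 0.00231). Among 15 cohesin genes 3 fell and 2 rose, with Sgo1, the protector of centromeric cohesin, at -0.69 ± 0.15 log2 units and the cohesin regulator gene Pds5b at 0.69 ± 0.12 log2 units (adjusted p = 0.0123 and 0.00618).

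At the centrosome 4 of 22 genes fell and 4 rose (18.2% each), near the shares of all genes. The augmin subunit gene Haus6 had -1.20 ± 0.13 log2 units and Tubgcp2, of the γ-tubulin ring, -0.77 ± 0.12 log2 units (adjusted p = 8.83e-04 and 0.00397). Of 16 genes listed under spindle microtubule proteins 4 rose and 1 fell, with the kinesin gene Kif13a at 0.75 ± 0.10 log2 units and the microtubule plus-end protein gene Clasp1 at 0.68 ± 0.10 log2 units (adjusted p = 0.00236 and 0.00334). Kif13a stands in that group by the list alone, and its value is not read as a result on the spindle. Of 15 midbody, septin and abscission genes 4 rose and 3 fell, and the septin genes went both ways, with Sept9 at 1.45 ± 0.11 log2 units (246 and 267 against 97.9 and 89.6 CPM, adjusted p = 2.82e-04) and Sept11 at -0.68 ± 0.092 log2 units (adjusted p = 0.00217).

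Mitotic entry genes and the factors that act on CHR promoters had 11 of 27 that fell (40.7%), 4 that rose (14.8%) and 12 that did not pass, with a median of -0.37. Foxm1, an activator of late cell cycle genes, had 24.7 and 31.4 CPM in BORG-expressing libraries and 60.0 and 50.05 CPM in parental libraries and fell by 0.96 ± 0.16 log2 units (adjusted p = 0.00508); it overlaps Tex52 and a predicted gene on the same strand, so its counts are uncertain. Mybl2, which encodes B-MYB, had 4.04 and 4.12 against 10.3 and 7.56 CPM and fell by 1.12 ± 0.24 log2 units (adjusted p = 0.0125). Rbl2, the pocket protein p130 of the DREAM complex, had 82.5 and 78.6 against 29.2 and 29.9 CPM and rose by 1.44 ± 0.11 log2 units (adjusted p = 2.59e-04). Cdk1, the kinase of mitotic entry, fell by 0.35 ± 0.10 log2 units and its cyclin Ccnb1 by 0.87 ± 0.18 log2 units (adjusted p = 0.0376 and 0.0111), while the activating phosphatase gene Cdc25b rose by 0.97 ± 0.11 log2 units (adjusted p = 0.00104). The genes of all 3 NF-Y subunits were lower by the test, with Nfyc at -1.65 ± 0.19 log2 units, Nfya at -0.58 ± 0.093 log2 units and Nfyb at -0.37 ± 0.11 log2 units (adjusted p = 0.00125, 0.00413 and 0.0415). They were named after their values were seen. The genes Lin9, Lin37, Lin52, Lin54, Rbbp4, E2f4, Rbl1 and Tfdp1 of the same group are not described here, so these values do not stand for MuvB or DREAM as a whole. Exons of Rbl2, Cdc25b, Zwilch, Mis12, Cenpq, Ncaph2 and Tubgcp2 overlap another gene on the opposite strand. Mki67, the proliferation marker, did not pass (-0.12 ± 0.13 log2 units, 361 and 292 against 343 and 368 CPM, adjusted p = 0.478).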

How the data were processed

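Reads were handled with FastQC, Trim Galore, TopHat and Cufflinks, per the submitters' processing notes, which list the builds GRCm38, mm10 and mm8 with no role; for tool versions and the strand setting of the counting the sources used here give nothing. The deposited table gives estimated counts of fragments per gene and library (2.83% of values were not whole) and FPKM, both made by the authors; 2 further columns of scaled fragments were not used. Identifiers were named through GENCODE M21 (48051 of 48432 matched). Estimated counts were rounded, scaled by TMM and tested with edgeR 4.0.16 (R 4.3.3; quasi-likelihood, filterByExpr, 15116 genes, Benjamini-Hochberg, threshold 0.05). Alternatives used DESeq2 1.42.0, limma 3.58.1 on log2(FPKM + 1) and log2(FPKM + 0.1), other scalings and filters, corrections for GC content and length, a replicate block, and fits without each library. The members and lists were chosen with earlier results of these data known. The rule for values in every library took members that passed with at least a 2-fold change, and in each class the smallest and largest p; of the other genes, the 2 smallest p per group and Cdk1, Ccnb1, Foxm1, Mybl2 and Mki67. Further genes named with values were chosen after their values were seen. Depth limits low genes, above all in the shallowest library.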

Additional observations from a re-analysis of the deposited data

How the results depend on the processing

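Of the 20 genes that fell, 14 passed in every one of the 15 alternatives that fitted them (Anln, Birc5, Bub1, Cdca8, Kif11, Kif15, Ncapg, Ncaph, Ndc80, Nuf2, Plk4, Smc2, Spc24 and Ttk); Ect2, Kif4, Mad2l1, Kif20b, Prc1 and Tpx2 did not, and none of the 3 that rose did. The median log2 fold change of the 52 was -0.30 with upper-quartile factors, -0.41 with no filter and -0.30 with limma on log2(FPKM + 1), and between -0.44 and -0.31 without 1 library. Limma at either pseudocount left 1 of the 52 genes that rose, and 13 that rose and 24 that fell of the 147 others; with at least 5 FPKM 26 of the others fell. Without 1 library between 0 and 3 of the 52 genes rose and between 15 and 23 fell, and between 13 and 22 of the others rose. With 0 genes that rose by edgeR, 2 were higher at an unadjusted p under 0.05 without parental replicate 1, and 2 without parental replicate 2. Same-numbered libraries did not deviate together: across genes, the deviation of replicate 1 from its group mean correlated at -0.44 between the groups. With 2 libraries per group replicate 2 mirrors replicate 1, so this is 1 comparison and cannot show how the libraries were paired. With the replicate block 0 of the 52 genes rose by edgeR (3 higher at an unadjusted p under 0.05), 14 fell, and 14 and 26 of the others rose and fell. With replicate numbers crossed between the groups, an alternative added once the data had been seen, the block gave 5 that rose and 32 that fell, while 30.6% of all genes were higher and 31.1% lower (13.1% and 14.6% with the uncrossed block). The direction turned in at least 1 alternative for 13 of the 52 genes, none of which had passed: Hmmr (-0.075 to 0.27 over the alternatives), Cdc20 (-0.013 to 0.25), Racgap1 (-0.012 to 0.18), Cenpk (-0.39 to 0.021), Cenpm (-0.84 to 0.95), Bub1b (-0.0085 with RLE factors, -0.028 with DESeq2, -0.050 with no filter, -0.012 and -0.013 with limma, -0.12 to 0.12 without 1 library), Ncapd2 (0.0012 with upper-quartile factors, 0.0073 and 0.0061 with limma, -0.19 to 0.010 without 1 library), Nek2 (-0.0095 with DESeq2, -0.031 with no filter, -0.12 to 0.11), Cenpf (-0.020 with no filter, -0.13 and -0.14 with limma, -0.0050 with the GC and length correction and -0.0053 with the block added, -0.18 to 0.22), Cit (0.055 and 0.091 with limma, -0.28 to 0.075), Aspm (-0.058 and -0.064 with limma, -0.14 to 0.26), Ube2c (-0.12 to 0.29) and Kif18a (-0.059 to 0.40); the cause was not tested.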
